A study of Mus musculus with 18 samples.

Results

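Messenger RNA of the dystrophin-glycoprotein complex and of utrophin was examined in mouse hearts as 8 genes, taken by name from the gene tables: Dmd, Utrn, Dag1, Sgca, Sgcb, Sgcd, Dtna and Lama2. They were named for their place at the sarcolemma. All 8 were found among the 23457 genes of the count table, and all 8 passed the filter on low counts that left 12281 genes for testing. RNA-seq was done on the hearts of 18 male C57BL/6 mice aged 17 weeks, 6 in each of 3 groups that had received an adeno-associated viral vector by tail vein as adults. In the vector control, rAAV6-blank, the promoter drives no coding sequence, whereas rAAV6-PLCb1a received phospholipase C beta 1a, a splice variant that is inactive in heart, and rAAV6-PLCb1b received phospholipase C beta 1b, which lowers contractility without hypertrophy. Each heart came from a separate animal and is named below by its group and mouse number. The study's methods describe left ventricle, whereas the sample labels name both ventricles.

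Ribosomal RNA had been depleted before sequencing, and counts per heart ran from 13246339 to 24155465. Mitochondrial transcripts took most of them, and the mitochondrial ribosomal RNA mt-Rnr2 alone held 53.5 to 57.5% of counts in each heart, so that nuclear genes held 29.7 to 32.2% of counts in blank hearts, 29.5 to 32.9% in PLCb1a hearts and 28.1 to 31.3% in PLCb1b hearts. Levels are given as FPKM, fragments divided by library size and by transcript length, which allows genes to be set side by side. CPM, counts divided by library size after TMM scaling, are used for differences between hearts. A gene was called when its adjusted p (false discovery rate, FDR) in edgeR's quasi-likelihood test lay below 0.1.

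Dystrophin lies under the muscle membrane, where its amino-terminal end binds actin and its carboxy-terminal part binds the transmembrane core of dystroglycan. Dystroglycan holds laminin of the basement membrane on the outside, the sarcoglycans stabilise it in the membrane, and dystrobrevin and the syntrophins bind on the inner face. Loss of dystrophin causes muscular dystrophy with cardiomyopathy, and utrophin, an autosomal homologue, can take much of its place.

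Every gene of the complex was well expressed. Dag1, which encodes dystroglycan, stood highest in level at 32.9 ± 1.49 FPKM (SD, n = 18), above 95.2% of the genes tested. Dmd followed at 24.1 ± 1.29 FPKM. The sarcoglycan genes came next, with Sgcd at 21.4 ± 1.44 FPKM, Sgca at 20.8 ± 1.06 FPKM and Sgcb at 16.8 ± 0.979 FPKM. Lama2 stood at 14.4 ± 1.03 FPKM, Dtna at 12.2 ± 1.01 FPKM and Utrn lowest at 11.5 ± 0.598 FPKM, still above 84.9% of genes.

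Among neighbours in this order, only Dag1 and Dmd had ranges of FPKM over all hearts that did not overlap. Dag1 was higher than Dmd in 18 of 18. Dmd exceeded Sgcd in 17 hearts, Sgca exceeded Sgcb in 18, Sgcb exceeded Lama2 in 18 and Lama2 exceeded Dtna in 17. The other 2 neighbouring pairs did not differ beyond their spread, with Sgcd above Sgca in 12 of 18 hearts and Dtna above Utrn in 11. Those 2 pairs changed places when counts were divided by the exonic length of the RefSeq gene models, Sgca reaching 17.5 CPM per kilobase against 16.2 for Sgcd, and Dtna at 3.94 lying below Utrn in all 18. The 2 scales differ in how fragments are assigned to genes as well as in gene length, and which of these moves Dtna was not tested.

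**Figure D1:**
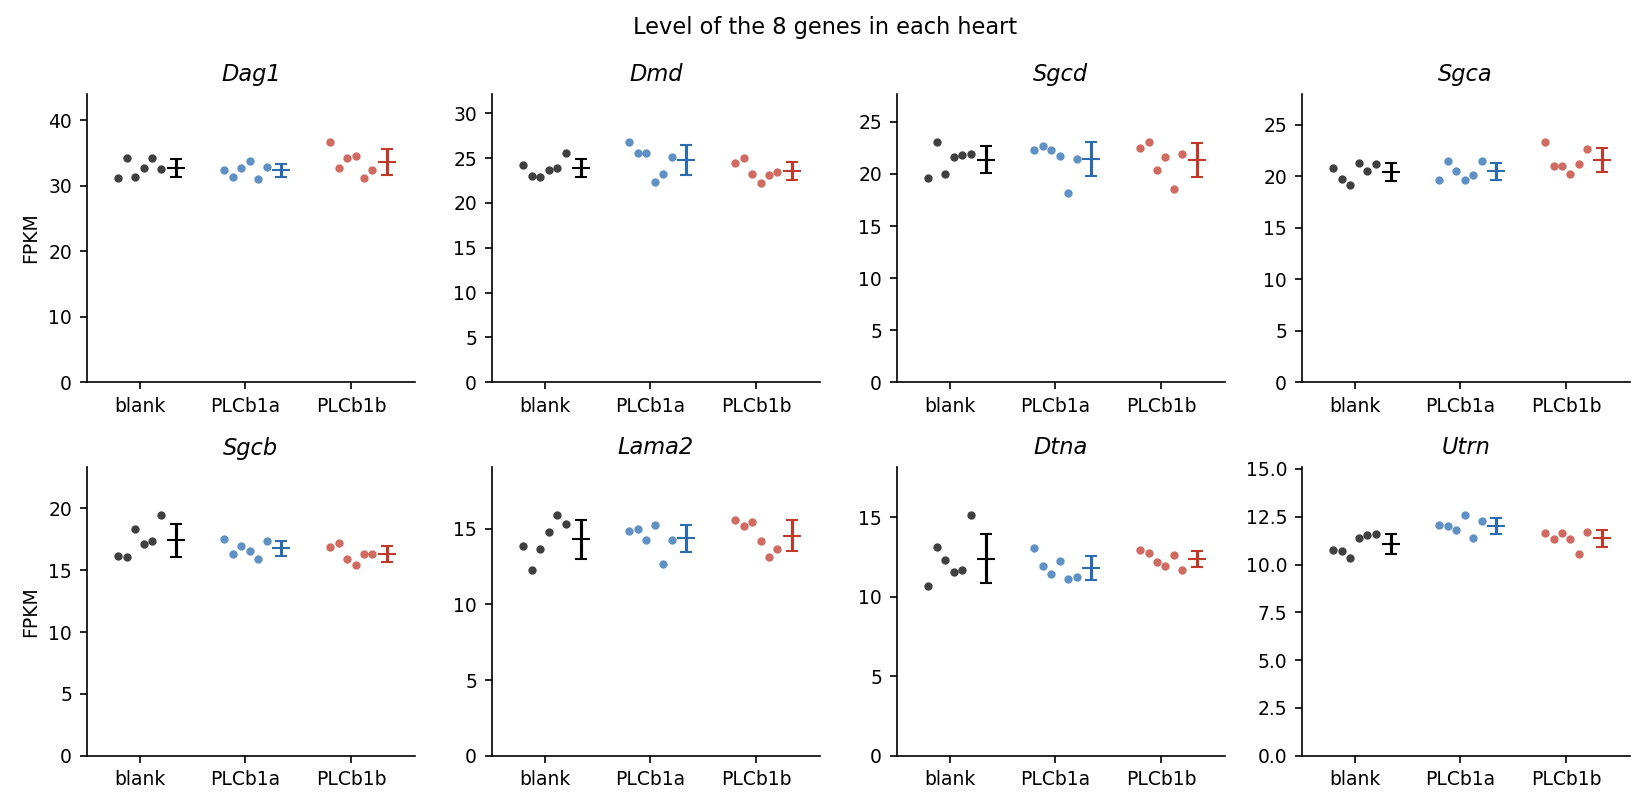
FPKM of each of the 8 genes in every heart, one panel per gene in the order of mean level, with points for hearts, a dash for the group mean and bars for 1 SD (n = 6 per group). Groups overlap in every panel, and the Utrn points of PLCb1a hearts lie between 11.4 and 12.6 FPKM against 10.3 to 11.6 FPKM in blank hearts.

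Between hearts the complex varied little. The highest heart exceeded the lowest by 1.18 times in FPKM of Dag1 and by 1.42 times in FPKM of Dtna, with the other genes in between. Within groups the coefficient of variation in CPM ran from 2.83% for Utrn to 5.74% for Dtna, against a median of 11.04% over all genes tested. Beside genes of similar count the gap was smaller. With genes split into 10 classes by count, the median was 5.36% in the class of Dmd and 6.31% in that of Dtna. The share of the same class with a lower coefficient ran from 2.69% for Utrn to 47.8% for Dmd. For Dtna, at 36.7%, and Sgcb, at 43.2%, it was also high, so low variation was not particular to the complex. On CPM Utrn was among the steadiest genes of the heart, with 0.269% of all genes showing a lower coefficient. In the same of 10 classes by count this share was 2.69%. On FPKM the coefficient of Utrn was 4.01%, the lowest of the 8 genes, with Dag1 next at 4.48%. The place of Utrn among all genes on FPKM was not examined.

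Overexpression of PLCb1b, the active variant, was compared with blank to ask whether depressed contractility came with a change in the complex. None of the 8 genes was called by edgeR's quasi-likelihood test (0 of 8), where 0.0977% of all genes were. No member had an unadjusted p below 0.05 (0 of 8, against 7.43% of all genes), and DESeq2, edgeR's exact test and limma on log2(FPKM + 0.1) each called 0, while calling 0.195%, 0.179% and 0.0533% of all genes. Hearts of the 2 groups overlapped in CPM for all 8 genes, and 0.48% of all genes were without overlap. Log2 fold changes of the members ran from -0.07 for Sgcb to 0.09 for Sgca, with a median of 0.02 beside -0.00 for all genes. The 95% intervals of the 8 genes together reached from 0.892-fold to 1.14-fold.

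PLCb1a against blank asked what came with the inactive variant. The quasi-likelihood test of edgeR again called 0 of 8 genes, beside 0.0814% of all genes. Utrn alone had an unadjusted p below 0.05 (1 of 8, against 8.81% of all genes) and alone showed no overlap of hearts in CPM (1 of 8, against 0.594%). It was the 1 member called by DESeq2, which called 0.269% of all genes, and by edgeR's exact test, which called 0.366%, whereas limma on FPKM called 0 of 8 and 0.0533% of all genes. Fold changes on the log2 scale ran from -0.08 for Dtna to 0.14 for Utrn with a median of 0.00, and the intervals reached from 0.881-fold to 1.15-fold.

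PLCb1b against PLCb1a set the active variant beside the inactive one. Here too edgeR's quasi-likelihood test called 0 of 8, beside 0.00814% of all genes. Utrn had an unadjusted p below 0.05 (1 of 8, against 4.56%), no member was without overlap in CPM (0 of 8, against 0.179%), and 0 of 8 were called by DESeq2, edgeR's exact test or limma, which called 0.00814%, 0.0163% and 0.00888% of all genes. Log2 fold changes lay between -0.08 for Dmd and 0.08 for Sgca, within intervals of 0.891-fold to 1.14-fold. The Sgca value was 0.05 without PLCb1b mouse 17. Over 17 alternative settings Dmd ran from -0.078 to -0.046 and Utrn from -0.079 to -0.049. The 3 comparisons share hearts, the blank group entering both of the first, so their values are not independent of each other.

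**Figure D2:**
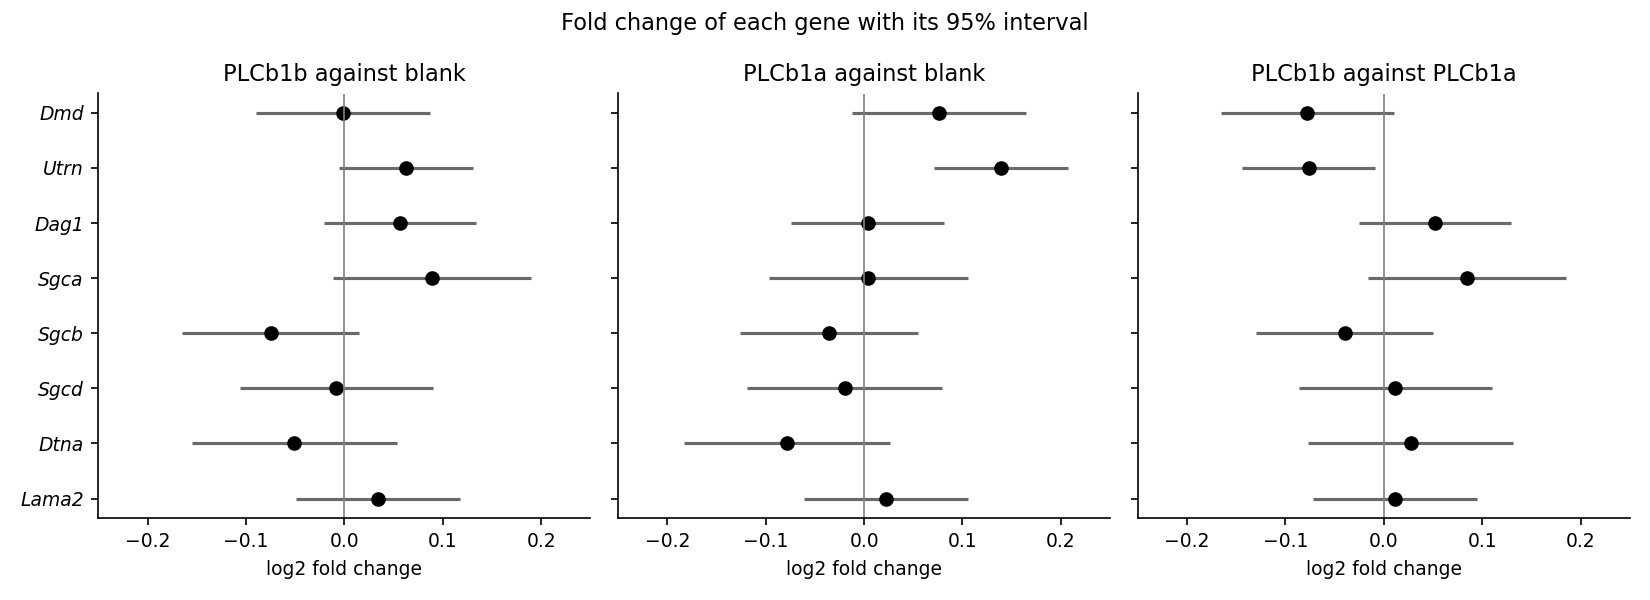
Log2 fold change (points) of each gene with its 95% interval (lines) in the 3 comparisons, from edgeR's fit of 18 hearts. The interval lies wholly on one side of 0 for Utrn in PLCb1a against blank (0.07 to 0.21) and in PLCb1b against PLCb1a (-0.14 to -0.01), and spans 0 for every other gene and comparison.

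Dystrophin and utrophin, the actin-binding members, have the longest exonic sequence of the 8 genes. Dmd lies on chromosome X (GRCm38.p6, chrX:82948870-85205050, plus strand), where its RefSeq model has 79 exons and 13.9 kb of exonic sequence over 2256181 bases. Utrn lies on chromosome 10 (chr10:12382188-12861735, minus strand) with 74 exons and 12.4 kb of exonic sequence. Both are far above most genes in exonic length, longer than 99.3% and 99.1% of them. RefSeq lists a second start for Dmd deep inside the gene, at base 85048295, and 17 of the 79 exons, with 31.8% of the exonic bases, lie beyond it. Counts of Dmd take in any transcripts from that start, so full-length dystrophin was not measured apart from them.

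The windows at the start sites of these genes, from 250 bases before to 50 bases after the start, are shown from RefSeq on GRCm38.p6 because Utrn is the 1 member without overlap of hearts in CPM, in PLCb1a against blank, and Dmd its homologue with alternative starts. Each is printed 5′ to 3′ on the strand of its gene. In the main Dmd window, chrX:82948620-82948919 on the plus strand, capitals mark a CArG box, the element that serum response factor binds, at positions -98 to -89 from the start site. In the window of the second Dmd start, chrX:85048045-85048344 on the plus strand, capitals mark 3 matches to GGGCGG on either strand, the core that Sp1 binds, of which 2 overlap. In the Utrn window, chr10:12861686-12861985 on the minus strand, capitals mark 7 matches to CANNTG, the E-box, of which 2 overlap. This window is set by the first base of the 1 RefSeq model of Utrn. Whether transcription in heart begins there was not tested, so the window is not shown to be a promoter.
Dmd main start: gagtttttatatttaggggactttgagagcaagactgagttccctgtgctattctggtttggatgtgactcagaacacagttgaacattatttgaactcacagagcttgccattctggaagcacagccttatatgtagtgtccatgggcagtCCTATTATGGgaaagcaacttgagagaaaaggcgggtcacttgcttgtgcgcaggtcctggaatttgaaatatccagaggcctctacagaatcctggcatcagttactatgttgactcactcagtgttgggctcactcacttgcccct
Dmd second start: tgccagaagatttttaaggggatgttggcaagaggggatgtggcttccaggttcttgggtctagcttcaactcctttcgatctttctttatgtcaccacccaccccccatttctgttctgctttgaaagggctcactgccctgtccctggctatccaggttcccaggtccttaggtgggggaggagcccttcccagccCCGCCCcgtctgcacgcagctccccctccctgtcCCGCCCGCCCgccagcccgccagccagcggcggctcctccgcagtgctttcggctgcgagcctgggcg
Utrn start: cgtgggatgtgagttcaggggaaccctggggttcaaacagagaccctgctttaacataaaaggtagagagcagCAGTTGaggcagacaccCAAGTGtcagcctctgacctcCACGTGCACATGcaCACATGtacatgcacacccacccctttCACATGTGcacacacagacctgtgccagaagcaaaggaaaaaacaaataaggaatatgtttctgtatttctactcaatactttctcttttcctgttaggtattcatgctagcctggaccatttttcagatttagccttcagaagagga

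Letters of this kind differ in how common they are. A CArG box was present in 1.64% of the 32544 distinct start windows of this length in RefSeq, GGGCGG in 35.9% and CANNTG in 72.3%, on either strand. These shares count a window with any number of matches, and shares with several matches were not computed. Start windows were matched for 7 of the 8 genes, Dtna being the one without. Lama2 also held a CArG box, at positions -39 to -30, and the other genes held none. The main Dmd window had 45.7% G and C and the Utrn window 46.0%, below the median of 52.7% over all windows, whereas the second Dmd start had 62.7%. A match describes the sequence and does not show that a factor binds.

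Dystrophin mRNA was spread widely within the PLCb1a group. FPKM of Dmd in blank hearts were 22.9 at the lowest, 23.8 at the median and 25.6 at the highest, in PLCb1a hearts 22.3, 25.3 and 26.8, and in PLCb1b hearts 22.2, 23.3 and 24.97. Groups overlapped, and PLCb1a hearts held both the highest value, in mouse 7, and nearly the lowest, in mouse 13. In CPM, 4 of 6 PLCb1a hearts were above all blank hearts and 1, mouse 13, was below all of them. The log2 fold change was 0.08 in PLCb1a against blank (95% interval -0.01 to 0.16, edgeR adjusted p = 0.629), -0.00 in PLCb1b against blank (-0.09 to 0.09, adjusted p = 1.0) and -0.08 in PLCb1b against PLCb1a (-0.17 to 0.01, adjusted p = 1.0). Without mouse 13 the value in PLCb1a against blank reached 0.11, the highest of any fit with 1 heart left out, and with a correction for exonic length it was 0.02 (adjusted p = 0.927).

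Utrophin mRNA stood higher in PLCb1a hearts than in blank hearts by a small step, which DESeq2 and edgeR's exact test called and edgeR's quasi-likelihood test and limma did not. Its FPKM in blank hearts were 10.3 at the lowest, 11.1 at the median and 11.6 at the highest, in PLCb1a hearts 11.4, 12.1 and 12.6, and in PLCb1b hearts 10.5, 11.5 and 11.7. All PLCb1a hearts except mouse 14 lay above all blank hearts in FPKM, and PLCb1b hearts lay among the blank hearts with the uppermost just beyond them. In CPM, PLCb1a hearts ran from 127 to 135 and blank hearts from 116 to 122, so that the groups did not overlap. Hearts given PLCb1b ran from 120 to 132 CPM and overlapped both groups.

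The log2 fold change of Utrn in PLCb1a against blank was 0.14 (SE 0.03, 95% interval 0.07 to 0.21), or 1.1-fold, with an adjusted p of 0.123 in edgeR's quasi-likelihood test. By p it was number 27 of the 12281 genes. Its adjusted p was 0.0173 with DESeq2 and 0.0841 with edgeR's exact test, and ran from 0.0173 to 0.611 over 17 alternative settings, all of which gave a positive fold change. With a correction for exonic length the log2 fold change of Utrn was 0.09 and its adjusted p 0.405. Against blank, PLCb1b gave 0.06 (-0.01 to 0.13, adjusted p = 0.701), with 6 of 6 hearts above the blank median in CPM. PLCb1b against PLCb1a gave -0.08 (-0.14 to -0.01, adjusted p = 1.0), with 5 of 6 PLCb1b hearts below all PLCb1a hearts.

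Long transcripts as a class had a higher median in this comparison than short ones. The 1228 genes with the longest exonic sequence, at least 6.49 kb, had a median log2 fold change of 0.03 in PLCb1a against blank, and as many of the shortest had -0.05. The longest contain Dmd, Utrn, Dtna and Lama2, among which Dtna had a fold change in the other direction. A part of transcript length in the Utrn value beyond the correction given above was not tested.

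Red cell transcripts were also higher in most PLCb1a hearts. The summed FPKM of erythrocyte markers ran from 303 to 467 in blank hearts, from 416 to 637 in PLCb1a hearts and from 346 to 554.7 in PLCb1b hearts, with Hba-a2 the most abundant. Of the 4 erythrocyte genes in the count table, Hba-a1, Hba-a2 and Hbb-b1 were listed at 0 counts in every heart despite 175, 181 and 82.4 FPKM, so the 2 tables treat these near-identical globin genes differently. The remaining gene, Alas2, had a log2 fold change of 0.63 in PLCb1a against blank with an adjusted p of 0.186 in edgeR's quasi-likelihood test. Whether red cell content has a part in the Utrn value was not tested. In whole tissue, fewer cells of a type and less RNA per cell cannot be told apart.

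Dystroglycan, the link between the membrane and laminin, is made from Dag1 on chromosome 9. FPKM of Dag1 in blank hearts were 31.1, 32.6 and 34.2 at the lowest, median and highest, in PLCb1a hearts 31.1, 32.5 and 33.7, and in PLCb1b hearts 31.2, 33.4 and 36.7. The groups overlapped, while 3 of 6 PLCb1b hearts, mice 4, 10 and 8, lay above all hearts of both other groups, mouse 8 only just. In CPM, 6 of 6 PLCb1b hearts were above the blank median and 1 was above all blank hearts. The log2 fold change was 0.06 in PLCb1b against blank (-0.02 to 0.13, edgeR adjusted p = 0.772) and 0.00 in PLCb1a against blank (-0.07 to 0.08, adjusted p = 0.991).

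Neither alpha- nor beta-sarcoglycan mRNA differed between groups by the test. Sgca, which encodes alpha-sarcoglycan, had FPKM of 19.1, 20.7 and 21.3 at the lowest, median and highest of blank hearts, 19.6, 20.3 and 21.5 of PLCb1a hearts and 20.3, 21.1 and 23.4 of PLCb1b hearts. Sgcb, for beta-sarcoglycan, had 16.1, 17.2 and 19.5 FPKM in blank hearts, 15.9, 16.7 and 17.5 in PLCb1a hearts and 15.4, 16.3 and 17.2 in PLCb1b hearts. In CPM, 3 of 6 PLCb1b hearts were above all blank hearts for Sgca and 3 of 6 were below all of them for Sgcb, and the groups overlapped for both. The log2 fold change in PLCb1b against blank was 0.09 for Sgca (-0.01 to 0.19, edgeR adjusted p = 0.716) and -0.07 for Sgcb (-0.17 to 0.02, adjusted p = 0.744). Single hearts weighed on both values, which were 0.06 for Sgca without PLCb1b mouse 17 and -0.05 for Sgcb without blank mouse 32.

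Delta-sarcoglycan did not separate the groups. FPKM of Sgcd were 19.6, 21.8 and 23.1 at the lowest, median and highest of blank hearts, 18.2, 22.0 and 22.7 of PLCb1a hearts and 18.6, 21.8 and 23.1 of PLCb1b hearts. Its highest and median hearts were nearly level across groups, and the low end was set by PLCb1a mouse 14 and PLCb1b mouse 16. Log2 fold changes were -0.01 in PLCb1b against blank (-0.11 to 0.09) and -0.02 in PLCb1a against blank (-0.12 to 0.08), with edgeR adjusted p of 0.981 and 0.937.

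Alpha-dystrobrevin, the product of Dtna, binds dystrophin and the syntrophins inside the membrane. FPKM of Dtna were 10.7, 11.99 and 15.1 at the lowest, median and highest of blank hearts, 11.1, 11.7 and 13.1 of PLCb1a hearts and 11.7, 12.4 and 12.97 of PLCb1b hearts. Both extremes fell among blank hearts, mouse 36 being highest and mouse 26 lowest, so the other groups lay within the blank range of FPKM. The log2 fold change was -0.08 in PLCb1a against blank (-0.18 to 0.03, edgeR adjusted p = 0.686) and -0.05 in PLCb1b against blank (-0.16 to 0.05, adjusted p = 0.855). Without blank mouse 36 these values were -0.04 and -0.01.

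Lama2 encodes the laminin alpha 2 chain, the ligand of dystroglycan in the muscle basement membrane, and is the extracellular member. Its FPKM were 12.3, 14.3 and 15.9 at the lowest, median and highest of blank hearts, 12.7, 14.5 and 15.2 of PLCb1a hearts and 13.1, 14.7 and 15.6 of PLCb1b hearts. No group stood apart, and the blank hearts had both the highest and the lowest value. Log2 fold changes were 0.03 in PLCb1b against blank (-0.05 to 0.12) and 0.02 in PLCb1a against blank (-0.06 to 0.11), with edgeR adjusted p of 0.884 and 0.915. With 1 heart left out the former ran from 0.01, without blank mouse 30, to 0.05.

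Pairs of members were compared as ratios of counts within a heart, which do not depend on scaling between libraries. Of 12 exact permutation tests, 4 ratios in 3 pairs of groups, the lowest p adjusted over all 12 was 0.14. The ratio of Utrn to Dmd was 0.433, 0.442 and 0.467 at the lowest, median and highest of blank hearts, 0.434, 0.460 and 0.543 of PLCb1a hearts and 0.438, 0.474 and 0.491 of PLCb1b hearts. PLCb1a mouse 13 stood far above the rest with 0.543, the heart that was low in Dmd, and the groups otherwise overlapped. Differences in log2 ratio were 0.06 for PLCb1a against blank (exact p = 0.212, adjusted p = 0.364) and 0.06 for PLCb1b against blank (exact p = 0.108, adjusted p = 0.216). The former rested largely on mouse 13, without which it was 0.02.

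Sgcb to Sgca had the largest log2 difference of the 12. The ratio was 1.63, 1.74 and 2.08 at the lowest, median and highest of blank hearts, 1.62, 1.75 and 1.89 of PLCb1a hearts and 1.49, 1.62 and 1.74 of PLCb1b hearts. Hearts given PLCb1b lay low, 4 of 6 below all blank hearts, mouse 8 only just, yet the groups overlapped. The log2 difference was -0.16 for PLCb1b against blank (exact p = 0.0238, adjusted p = 0.14) and -0.12 for PLCb1b against PLCb1a (exact p = 0.026, adjusted p = 0.14). With 1 heart left out the adjusted p ran from 0.0606 to 0.197 and from 0.0519 to 0.197, lowest without PLCb1b mouse 6 and highest without PLCb1b mouse 16 in both, and below 0.1 also without blank mouse 26 in the former (0.0649). With FPKM in place of counts it was 0.104 in both.

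For Sgcd to Sgca the lowest, median and highest ratios were 0.745, 0.760 and 0.812 in blank hearts, 0.667, 0.766 and 0.825 in PLCb1a hearts and 0.662, 0.722 and 0.787 in PLCb1b hearts. Again 4 of 6 PLCb1b hearts lay below all blank hearts and 2 did not. The log2 difference for PLCb1b against blank was -0.10 (exact p = 0.0433, adjusted p = 0.14). With 1 heart left out its adjusted p ran from 0.0519, without PLCb1b mouse 6, to 0.218, and with FPKM it was 0.416. Dtna to Dmd was 0.0879, 0.101 and 0.109 in blank hearts, 0.0871, 0.0883 and 0.104 in PLCb1a hearts and 0.0930, 0.0967 and 0.104 in PLCb1b hearts. Most PLCb1a hearts were low in this ratio, mouse 13 excepted. The log2 difference was -0.15 for PLCb1a against blank (exact p = 0.0498, adjusted p = 0.14) and 0.10 for PLCb1b against PLCb1a (exact p = 0.0584, adjusted p = 0.14). With 1 heart left out the adjusted p ran from 0.0519 to 0.201 and from 0.0519 to 0.239, lowest without mouse 13 in both, and was 0.0649 without blank mouse 26 in the former. With FPKM it was 0.372 and 0.104.

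**Figure D3:**
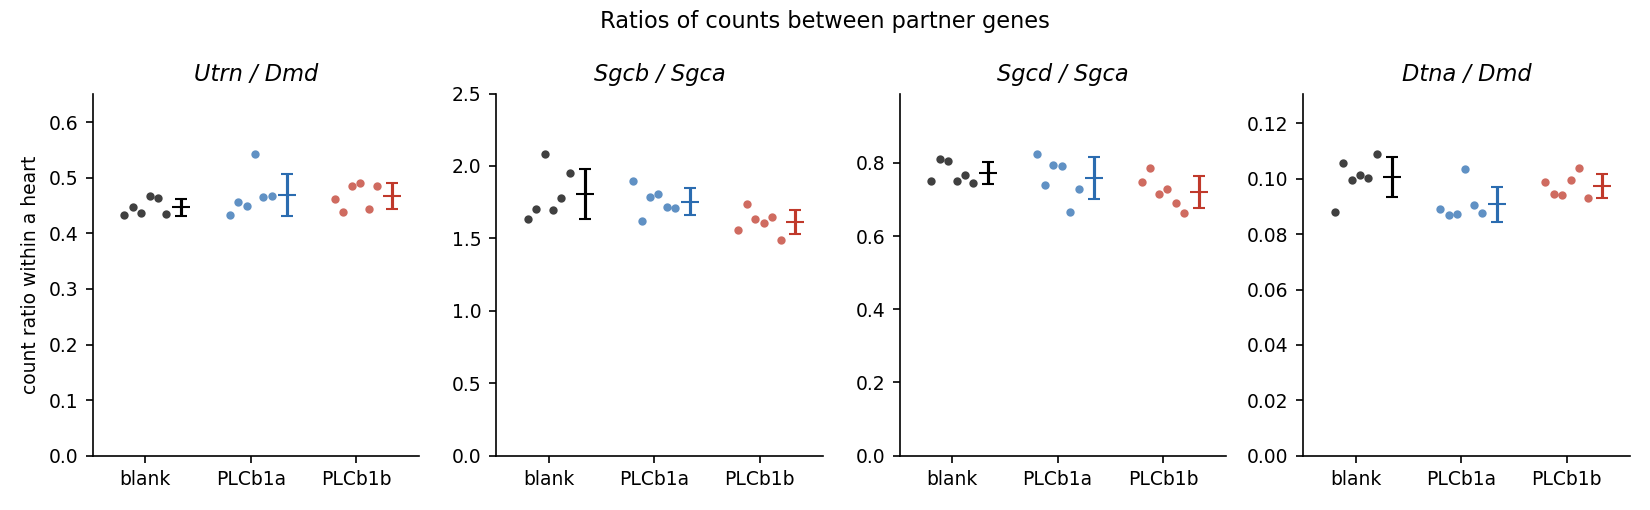
Ratio of counts of the named gene pairs in each heart (points), with the group mean (dash) and 1 SD (bars), n = 6 per group. PLCb1b hearts lie low for Sgcb over Sgca (1.49 to 1.74 against 1.63 to 2.08 in blank hearts), and PLCb1a mouse 13 is the single high point of its group for Utrn over Dmd and for Dtna over Dmd.

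Whether hearts high in one member of the complex were high in the others depended on the scale. Over the 28 pairs of members, with group means subtracted from log2 CPM of 18 hearts, Pearson's r ran from -0.42 to 0.59 with a median of 0.06, and 17 pairs were above 0. In permutation tests of 60 relations, these pairs and the 32 with marker lists or the nuclear share of counts, 7 had an unadjusted p below 0.05 and 0 an adjusted p below 0.1. On log2(FPKM + 0.1), 15 of the 60 had an adjusted p below 0.1, and 5 of these were pairs of members, Utrn with Lama2 (r = 0.76, adjusted p = 0.0151), Dmd with Sgcb (0.57, 0.05), Utrn with Sgcd (0.60, 0.0628), Utrn with Dag1 (0.59, 0.0811) and Dag1 with Sgcd (0.57, 0.084). Of the 28 pairs 25 were above 0 on that scale, with a median r of 0.36. The scales parted most where the nuclear share was concerned, with r = -0.31 between that share and Utrn on CPM and 0.81 on FPKM.

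On CPM the 3 highest r between members had adjusted p of 0.25 or more. Sgcb and Dtna had r = 0.59 (permutation p = 0.0377, adjusted p = 0.35; rho = 0.61), and r = 0.61 when the 2 hearts most extreme in Sgcb were left out. Dmd and Sgcb had r = 0.53 (permutation p = 0.0167, adjusted p = 0.25; rho = 0.63), and 0.47 without the 2 farthest hearts. Utrn and Sgca had r = 0.55 (permutation p = 0.0408, adjusted p = 0.35; rho = 0.44), which rested on 2 hearts, since r without them was 0.21. Utrn and Dmd, the homologues, had r = 0.11 (permutation p = 0.643, adjusted p = 0.818; rho = 0.21; 0.25 without 2 hearts).

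Relations with marker lists and with the nuclear share had no adjusted p below 0.1 on CPM either. The r of Utrn with the mean of 6 endothelial markers was 0.62 (permutation p = 0.00486, adjusted p = 0.146; rho = 0.68), and 0.67 without the 2 farthest hearts. Dag1 had r = 0.64 with the same markers (permutation p = 0.0104, adjusted p = 0.209; rho = 0.55; 0.56 without 2 hearts). With the cardiomyocyte markers Utrn had r = 0.51 (permutation p = 0.0344, adjusted p = 0.35; rho = 0.54; 0.59 without 2 hearts). Lama2 had r = 0.67 with the nuclear share of counts (permutation p = 0.00299, adjusted p = 0.146; rho = 0.66), and 0.53 without the 2 farthest hearts.

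**Figure D4:**
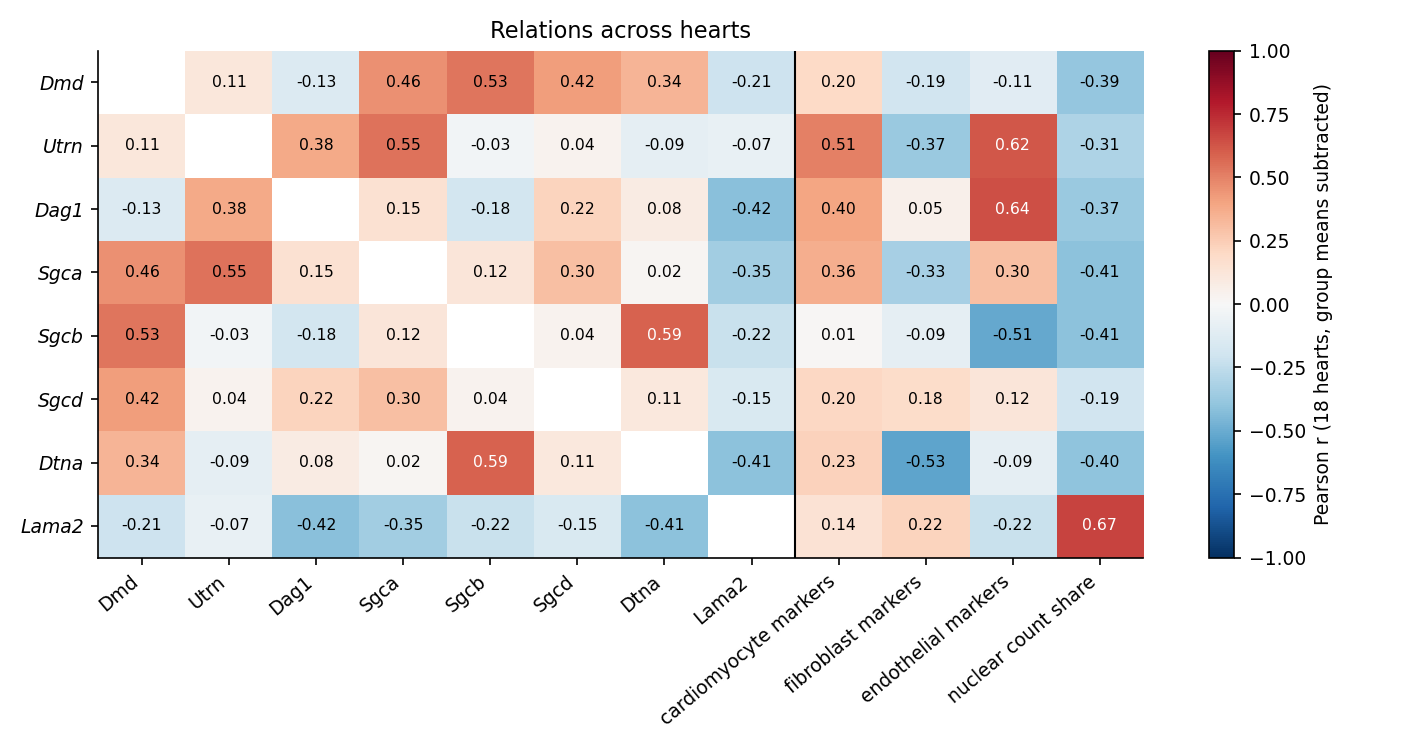
Pearson's r over 18 hearts, with group means subtracted, between log2 CPM of the 8 genes (left of the line) and of each gene with the mean log2 CPM of 3 marker lists and the nuclear share of counts (right). Member pairs run from -0.42 to 0.59, and the values farthest from 0 are those of Lama2 with the nuclear share (0.67) and of Dag1 and Utrn with endothelial markers (0.64 and 0.62).

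The genes whose pattern over the 18 hearts was most like each member were found by the highest r among the other 12280 genes tested, as a description. For Dmd these were Glt8d2 (r = 0.90), Zfp930 (0.86) and Filip1l (0.84). For Utrn they were Sparcl1 (r = 0.79), Lxn (0.79) and Samd9l (0.78). Dag1 was most like Fam175b (r = 0.84), Inpp5j (0.83) and Zhx2 (0.82).
Nearest to Sgca were Igbp1 (r = 0.86), Krt222 (0.80) and Idh3b (0.79). Sgcb had Tra2a (0.84), Cfl2 (0.81) and Cox6c (0.79), and Sgcd had Mapre2 (0.80), H2-DMb1 (0.77) and Ipo5 (0.76). Dtna was nearest to Kazn (r = 0.75), Aim1 (0.74) and Rps26 (0.73), and Lama2 to Eml3 (0.85), Vars (0.81) and Aff3 (0.80). No gene was shared between these lists, and no member was among the nearest of another. With 3 genes taken from 12280 for each member, such separate lists come easily by chance, and no conclusion is drawn from them.

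Other genes of the pathway were taken in 5 lists holding 79 genes, of which 78 were in the table and 70 were tested. None was called in any comparison by edgeR's quasi-likelihood test, and 0 were called by DESeq2, edgeR's exact test or limma. Over all genes tested, the quasi-likelihood test called 0.0977% in PLCb1b against blank, 0.0814% in PLCb1a against blank and 0.00814% in PLCb1b against PLCb1a. The other tests called at most 0.366%, so 0 of 70 is near the share over all genes. At an unadjusted p below 0.05, 3 were higher and 2 lower in PLCb1b against blank, 5 higher and 2 lower in PLCb1a against blank, and 2 higher and 1 lower in PLCb1b against PLCb1a, of 70 genes each time. Over all genes tested that share was 7.43%, 8.81% and 4.56%, near the share in the lists.

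Among 14 other dystrophin-associated proteins, 9 were tested, and the median log2 fold change was -0.04 in PLCb1b against blank and -0.07 in PLCb1a against blank. Sspn, for sarcospan, which sits in the membrane with the sarcoglycans, had the highest level at 25.5 ± 1.88 FPKM (SD, n = 18). Its log2 fold change was -0.04 in PLCb1b against blank (-0.14 to 0.06) and -0.07 in PLCb1a against blank (-0.16 to 0.03), with edgeR adjusted p of 0.891 and 0.737. Sgcz, Sntg1, Sntg2, Nos1 and Drp2 were too low to be tested, with 0 to 9 counts in any heart.

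Enzymes that build the laminin-binding sugar of dystroglycan formed a list of 17, with 16 in the table and tested. Their median log2 fold change was -0.06 in PLCb1b against blank, -0.03 in PLCb1a against blank and -0.00 in PLCb1b against PLCb1a. Large, the glycosyltransferase that extends the sugar chain, was highest in level at 10.8 ± 0.839 FPKM, followed by Dpm3, a subunit of dolichol-phosphate mannose synthase, at 8.31 ± 1.73 FPKM. Dpm3 rested on 16 to 56 counts per heart, and its log2 fold change of 0.40 in PLCb1b against PLCb1a (0.10 to 0.71) had an edgeR adjusted p of 1.0. Tmem5, a xylosyltransferase of the same chain, had -0.16 in PLCb1b against blank (-0.34 to 0.02, adjusted p = 0.706).

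Basement membrane ligands, the laminin chains, agrin, perlecan, nidogens and collagens IV and VI, had the highest medians of the 5 pathway lists. Of 19 genes 18 were tested, with a median log2 fold change of 0.09 in PLCb1b against blank and 0.08 in PLCb1a against blank, beside -0.00 for all genes, and 0.01 in PLCb1b against PLCb1a. Lamb2 was highest in level at 32.5 ± 2.42 FPKM with Col4a1 at 31.6 ± 2.82 FPKM, and their intervals spanned 0 in each comparison. Agrn, for agrin, had 0.17 in PLCb1b against blank (0.07 to 0.28, edgeR adjusted p = 0.385). Lama3, at 0.349 FPKM, had 0.36 in PLCb1a against blank (0.16 to 0.56, adjusted p = 0.227). Fibroblast markers, which belong to cells that also make these ligands, had medians of 0.13 and 0.07 in the comparisons with blank, and their part was not tested.

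Integrin and costamere genes, the other route from membrane to cytoskeleton, had medians of 0.02 in both comparisons with blank over 17 of 19 genes. Des, for the intermediate filament desmin, was highest in level at 253 ± 15.8 FPKM, and Actb had 134 ± 8.44 FPKM. Ank2, for ankyrin-B, had 0.09 in PLCb1b against blank (0.01 to 0.18, edgeR adjusted p = 0.632). Actg1 had 0.26 in PLCb1a against blank (0.02 to 0.49, adjusted p = 0.524), but Actb and Actg1 have near-identical copies in the genome and their counts are uncertain. Membrane repair genes, 10 of 10 tested, had medians of 0.04 and 0.02 against blank. Trim72 was highest in level at 50.9 ± 3.48 FPKM and Anxa6 next at 31.2 ± 2.39 FPKM. Anxa2 had -0.18 in PLCb1a against blank (-0.33 to -0.02, adjusted p = 0.48), and Ano5, at 0.718 FPKM, had 0.53 in PLCb1b against PLCb1a (0.12 to 0.94, adjusted p = 1.0).

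**Figure D5:**
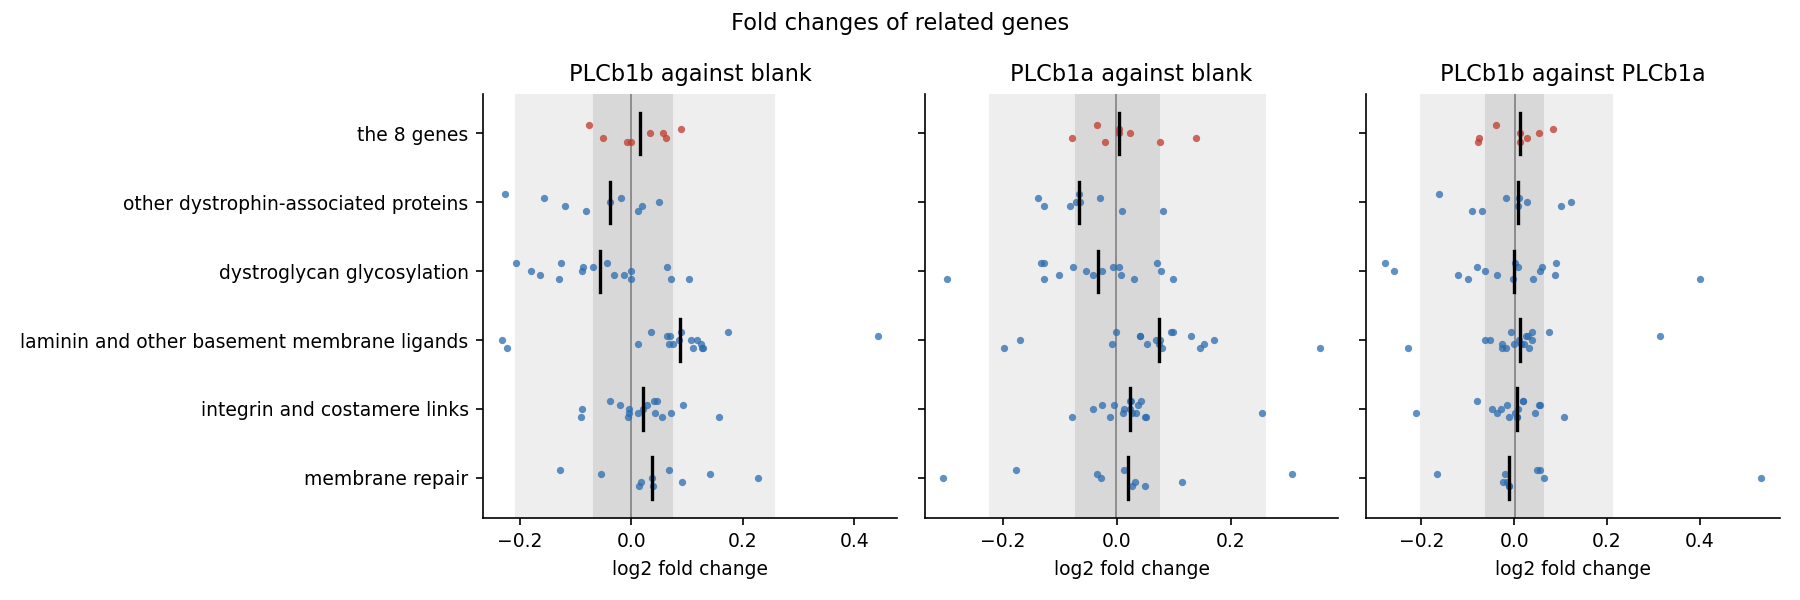
Log2 fold changes of the 8 genes (red) and of the tested genes of 5 related lists (blue) in the 3 comparisons, with black marks for medians and grey bands for the middle 50% and 90% of all genes tested. The 8 genes lie between -0.08 and 0.14, and the median of the basement membrane list is 0.09 and 0.08 in the comparisons with blank.

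Cardiomyocyte markers were by far the most abundant of the cell type lists. Summed FPKM of 6 cardiomyocyte markers ran from 10944 to 12609 in blank hearts, 10854 to 12190 in PLCb1a hearts and 10804 to 12099 in PLCb1b hearts, with Myl2 the most abundant at 5574 FPKM. Fibroblast markers summed to 176 to 222 FPKM over all hearts, led by Dcn, endothelial markers to 78.2 to 96.8, led by Cdh5, smooth muscle and pericyte markers to 107 to 126, led by Rgs5, and macrophage markers to 21.9 to 31.8, led by C1qa. The groups overlapped in each of these sums. Of 36 marker genes tested, edgeR's quasi-likelihood test, DESeq2 and limma called 0 in any comparison, beside at most 0.269% of all genes. The exact test of edgeR called 1, Alas2, in PLCb1a against blank (1 of 36, against 0.366% of all genes).

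Markers of skeletal muscle, fat and nerve were low, 1 heart excepted, and those of atrium were not. Skeletal muscle also expresses the dystrophin complex, and the sum of 7 skeletal muscle markers lay between 0.377 and 1.36 FPKM except in PLCb1a mouse 21, where it was 10.8. Leaving out any 1 heart kept the Utrn value in PLCb1a against blank between 0.13 and 0.15. A part of skeletal muscle in the Utrn value beyond these fits was not tested. Adipocyte markers summed to at most 1.59 FPKM and Schwann and neuronal markers to at most 1.71, with Th at 0 counts in every heart. Atrial markers, led by Nppa, summed to 71.2 to 104 FPKM in blank hearts, 45.2 to 121 in PLCb1a hearts and 55.5 to 88.4 in PLCb1b hearts, so that they were present in all 18 hearts. Over the 4 atrial genes the median log2 fold change was -0.36 in PLCb1b against blank, 0.02 in PLCb1a against blank and -0.38 in PLCb1b against PLCb1a, while Nppa itself had -0.02 (-0.28 to 0.25), -0.14 (-0.41 to 0.13) and 0.12 (-0.15 to 0.39). The part of atrial tissue in the values of the complex was not tested.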

How the data were processed

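The authors sequenced ribosome-depleted, strand-specific libraries of 18 hearts, aligned reads with TopHat2 2.0.10 to mm10 and deposited HTSeq counts per gene, which are whole numbers with no normalization. The authors also deposited FPKM per gene, listed with Cufflinks 2.1 among the tools in the submitters' notes. The mouse is the replicate, and the labels give no batch and no pairing. The 8 genes and all lists were chosen with earlier results of these data known.

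Counts were scaled by TMM and tested in edgeR 4.0.16 (R 4.3.3) by the quasi-likelihood F test with default options, in 1 model of 3 groups, after filterByExpr with a minimum count of 10, with Benjamini-Hochberg adjustment over 12281 genes. Intervals are 95% Wald intervals. CPM on the log2 scale used a prior count of 2. Ratios were compared by two-sided exact permutation tests of 6 hearts against 6, which can give 0.00216 at the smallest. Relations used 100000 permutations within groups. DESeq2 1.42.0, edgeR's exact test and limma 3.58.1 on log2(FPKM + 0.1), for 11267 genes averaging 0.5 FPKM or more, served as alternatives. At 3908354 to 7591558 nuclear counts per heart, the members held 264 to 7271 counts each. Start windows came from RefSeq (GRCm38.p6). From each pathway list the text names the 2 genes highest in FPKM and, per comparison, the gene with the lowest p, and from each marker list the gene highest in FPKM and those at 0 counts. Some genes that this rule takes are not reported here. Alas2 and the genes of the pathway lists too low to test were named after their values were seen. Older and newer symbols of a gene were counted once. Programs were tested on simulated data. Plots were made with matplotlib 3.10.9.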

Additional observations from a re-analysis of the deposited data

Results flagged for a closer look

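Each of 36 sets of 6 hearts, the FPKM of 8 genes and 4 count ratios in 3 groups, was searched for a heart far from the rest of its group, by the gap to the nearest heart as a share of the range. Chance alone marks about 1 in 20 such sets, and 4 were marked here. FPKM of Utrn in PLCb1b mouse 16 was 10.5, below the next heart at 11.3 and the highest at 11.7. FPKM of Sgcd in PLCb1a mouse 14 was 18.2, where the other hearts of the group lay between 21.5 and 22.7. These hearts have the lowest share of counts on nuclear genes in their groups, 28.1% and 29.5%. Over the 18 hearts, with group means subtracted, r with that share on FPKM was 0.81 for Utrn (adjusted p = 0.0069) and 0.51 for Sgcd (adjusted p = 0.154), and on CPM -0.31 and -0.19. In CPM neither heart stood apart in this way: Utrn in PLCb1b mouse 16 was 120 CPM with mouse 4 slightly lower, and Sgcd in PLCb1a mouse 14 was 21.1 CPM against 22.1 to 23.9 in the rest of its group.

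PLCb1a mouse 13 was far from its group in both ratios with Dmd as the denominator. Its ratio of Utrn to Dmd was 0.543, against 0.434 to 0.467 in the other 5 hearts, and its ratio of Dtna to Dmd was 0.104, against 0.0871 to 0.0904. Dmd in this heart was 244 CPM, the lowest of all 18 hearts, while its Utrn was 133 CPM, within the range of the group.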

How the results depend on the processing

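There were 17 alternative settings beside leaving out each of 18 hearts. Of these, 6 were chosen after seeing the data: the 3 shallowest hearts (PLCb1a mouse 14, blank mice 32 and 26) left out, and 5 other options of edgeR's fit, tried because default and robust fits gave different counts of genes.

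Over 17 settings 0 members were called in PLCb1b against blank and in PLCb1b against PLCb1a, and 0 pathway list genes in any comparison. Over all genes tested, these settings called 0 to 45. In PLCb1a against blank 1 member, Utrn, was called with DESeq2 (1) and edgeR's exact test (1). The direction of Utrn was kept in every fit, from 0.09 to 0.14 over settings and 0.13 to 0.15 with 1 heart left out, where its adjusted p was 0.123 to 0.295.

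Genes called in PLCb1b against blank, 12 by default, were 24 with DESeq2, 22 with edgeR's exact test, 26 without a filter, 26 without the shallowest hearts, and 6 with only the groups compared, limma on FPKM (0.1 or 1 added) or an FDR below 0.05. With 1 heart left out they were 4 to 17, over 1.5 times fewer without blank mice 33 (7) or 34 (4) or PLCb1b mice 4 (4), 6 (7) or 17 (6). In PLCb1a against blank the 10 became 33 with DESeq2, 45 with the exact test, 32 without a filter, 6 with only the groups compared, 6 and 5 with limma, 2 with length correction, 17 with the robust fit, 16 with bias adjustment and 2 at an FDR below 0.05. Leaving out 1 heart gave 2 to 20: 2 without blank mice 30 or 34, PLCb1a mice 7 or 11 or PLCb1b mice 6 or 10, 4 without PLCb1a mouse 14, 6 without blank mice 26 or 32 or PLCb1a mouse 9, 16 without blank mouse 33, 17 without PLCb1b mice 8 or 16 and 20 without PLCb1a mouse 13. In PLCb1b against PLCb1a the 1 gene became 2 with the exact test, no filter, only the groups compared, mitochondrial genes left out or without the shallowest hearts, and 0 with the robust fit, and 1 to 2 with 1 heart left out (2 without blank mice 26, 30 or 32, PLCb1a mouse 14 or PLCb1b mice 8 or 17). The cause was not tested.

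Of 24 fold changes of members 9 changed sign somewhere, in 23 of 408 values over settings and 27 of 432 with 1 heart left out. In PLCb1b against blank, Dmd had 0.0021 with upper-quartile scaling, 0.00012 with only the groups compared and 0.023 without the shallowest hearts (-0.017 to 0.017 with 1 heart left out). Sgcd had 0.011 with length correction and 0.0035 without the shallowest hearts (-0.023 to 0.016), and Dtna had 0.0029 and 0.0023 with limma. In PLCb1a against blank, Dag1 had -0.00092 without a filter, -0.015 and -0.014 with limma, -0.020 with length correction and -0.012 without the shallowest hearts (-0.0088 to 0.032). Sgca had -4.5e-05 without a filter and -0.0036 without the shallowest hearts (-0.011 to 0.027). Sgcd had 0.0035 with limma at either value added, 0.011 with length correction and 0.0077 without the shallowest hearts (-0.037 to 0.0047), and Lama2 had -0.017 with length correction (-0.0052 to 0.040). In PLCb1b against PLCb1a, Sgcd had -0.0043 and -0.0041 with limma and -0.0042 without the shallowest hearts (-0.0041 to 0.033), and Lama2 had -0.0037 without the shallowest hearts (-0.0036 to 0.028). The cause was not tested.

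With FPKM in place of counts, the log2 difference of Sgcd to Sgca in PLCb1a against blank was 0.0013 and that of Dtna to Dmd in PLCb1b against blank 0.024, both reversed. With 1 heart left out, Sgcb to Sgca ran from -0.19 to -0.12 in PLCb1b against blank, -0.067 to 0.0034 in PLCb1a against blank and -0.15 to -0.10 in PLCb1b against PLCb1a. Sgcd to Sgca ran from -0.12 to -0.074 in PLCb1b against blank and -0.055 to 0.0065 in PLCb1a against blank. Dtna to Dmd ran from -0.19 to -0.12 in PLCb1a against blank and 0.083 to 0.14 in PLCb1b against PLCb1a, and Utrn to Dmd from -0.024 to 0.041 in the latter. Relations with an adjusted p below 0.1 were 0 on CPM and 15 on log2(FPKM + 0.1), of which 5 were pairs of members.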
